A study of Mus musculus with 2 samples.

Results

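Footprint-dense open regions are stretches of open chromatin in which DNase-seq found many short protected sequences side by side. They were chosen by the number of footprints itself: the longer peak lists of both libraries were merged wherever peaks shared at least 1 bp, and a region was kept when it held peaks of both libraries and overlapped 8 or more footprints in each. The rule found 603 regions, which are 0.995% of the 60596 regions with peaks of both libraries, hereafter shared regions, and part of 105096 merged regions in all. Chromatin was profiled in spleen tissue of male B6CASTF1/J mice aged 4 days, first-generation hybrids of C57BL/6J and CAST/EiJ parents. There were 2 libraries, labelled biological replicates 1 and 2 of 1 group and described as coming from separate males, so the data hold no treatment, genotype or time contrast. Read totals were not used, so the depth is unknown, and at places where 1 library has no footprint it may only have had too few cuts. The tissue is a mixture of cells, and more cells of a type with an open site cannot be told apart from a more open site in each cell.

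DNase I cuts DNA where nucleosomes are absent, and a protein bound to DNA shields its own few bases from the enzyme. A footprint is such a short dip in cutting inside an open stretch, and it can also be left by the cutting preference of the enzyme for some sequences. Promoters in CpG islands commonly carry sites for many general factors, among them SP and KLF factors at GC boxes, NF-Y at CCAAT boxes, NRF1, ETS factors and CREB. In the young mouse spleen red cell formation goes on beside the first settlement of lymphocytes, and GATA1, PU.1 and RUNX factors act in these lineages, often at sites far from promoters.

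The densest members show what such packing looks like in sequence. Stretches of 5 members are given here because they had the highest density among the members with a stretch free of annotated untranslated exons and with at least 5 footprints of both libraries in it. All are from the + strand of the C57BL/6J reference, GRCm38 (mm10), and capitals mark bases covered by footprints of both libraries. Srsf6, a splicing factor of the SR family, is shown at chr2:162931381-162931527, and Onecut3, a homeobox gene whose nearest start site lies 19295 bp away, at chr10:80475321-80475540. Sqstm1, a receptor of selective autophagy, is shown at chr11:50210161-50210380, and Stt3a, a catalytic subunit of the enzyme that attaches N-linked sugars, at chr9:36767680-36767840. Klhl24, of the Kelch-like family, is shown at chr16:20098001-20098300.
Srsf6: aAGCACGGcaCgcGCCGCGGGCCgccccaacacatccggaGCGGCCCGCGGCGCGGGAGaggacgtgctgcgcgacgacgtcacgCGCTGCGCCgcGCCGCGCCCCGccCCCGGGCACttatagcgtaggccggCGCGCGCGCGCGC
Onecut3: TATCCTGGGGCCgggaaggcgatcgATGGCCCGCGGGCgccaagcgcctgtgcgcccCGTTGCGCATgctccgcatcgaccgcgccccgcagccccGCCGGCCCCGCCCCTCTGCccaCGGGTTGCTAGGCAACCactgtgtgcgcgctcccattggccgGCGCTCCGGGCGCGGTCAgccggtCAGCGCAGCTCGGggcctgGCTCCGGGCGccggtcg
Sqstm1: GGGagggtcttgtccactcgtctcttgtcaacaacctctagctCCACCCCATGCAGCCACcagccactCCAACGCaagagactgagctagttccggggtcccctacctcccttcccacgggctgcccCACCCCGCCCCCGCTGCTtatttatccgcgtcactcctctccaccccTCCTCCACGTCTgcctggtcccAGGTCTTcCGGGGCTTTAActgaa
Stt3a: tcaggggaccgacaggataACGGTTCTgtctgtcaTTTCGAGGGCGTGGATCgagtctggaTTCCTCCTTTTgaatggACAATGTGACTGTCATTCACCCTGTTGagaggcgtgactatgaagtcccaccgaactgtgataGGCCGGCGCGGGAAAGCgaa
Klhl24: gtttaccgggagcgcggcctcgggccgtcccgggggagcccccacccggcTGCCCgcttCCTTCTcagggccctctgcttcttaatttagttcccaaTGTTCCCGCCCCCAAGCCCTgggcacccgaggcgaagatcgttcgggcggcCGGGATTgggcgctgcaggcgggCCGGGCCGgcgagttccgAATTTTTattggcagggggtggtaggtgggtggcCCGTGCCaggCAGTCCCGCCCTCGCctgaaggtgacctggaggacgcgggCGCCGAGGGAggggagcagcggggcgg

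In the Srsf6 stretch 79 of 147 bases lay in footprints of both libraries, and in the Onecut3 stretch 112 of 220. The Onecut3 stretch held a GC box and an RFX site (GTTGCCNNG) inside such footprints, and its CCAAT box lay outside them. In Klhl24 an E2F site (GGCGGGAA, read on the other strand) lay inside them. Printed letters are those of the reference, and alleles of the CAST/EiJ parent were not read.

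The 603 members divided unevenly by number. Counted in the library with fewer, 298 had 8 footprints, 139 had 9, 146 had 10 to 12 and 20 had 13 or more. On the other side of the limit lay 666 shared regions with 7 footprints. The members with 8 had a median width of 360 bp, densities of 2.35 footprints per 100 bp in both libraries and a promoter share of 86.6%, where the regions with 7 had 320 bp, 2.37 and 2.33 per 100 bp and 84.4%. The limit thus cut through a continuum. The 2 libraries gave the same number at 171 members and numbers within 1 of each other at 404. Replicate 1 had more at 216 members and replicate 2 at the same number of members, and the largest gap was 10 footprints.

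Width was the first measure along which members varied. Their median width was 420 bp, with quartiles of 340 and 540 bp, and the range ran from 200 to 1856 bp. At 189 members the region joined more than 1 peak of a library. Median density was 2.27 footprints per 100 bp in replicate 1 and 2.22 in replicate 2, against 0.595 and 0.787 in other shared regions of like width, weighted to the widths of the members. These densities follow from the rule and are given as a description. A count of 8 does not by itself make a region dense: 47 members, all of 660 bp or more, lay under the median density of all shared regions in both libraries, which was 1.25 and 1.43.

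**Figure D1:**
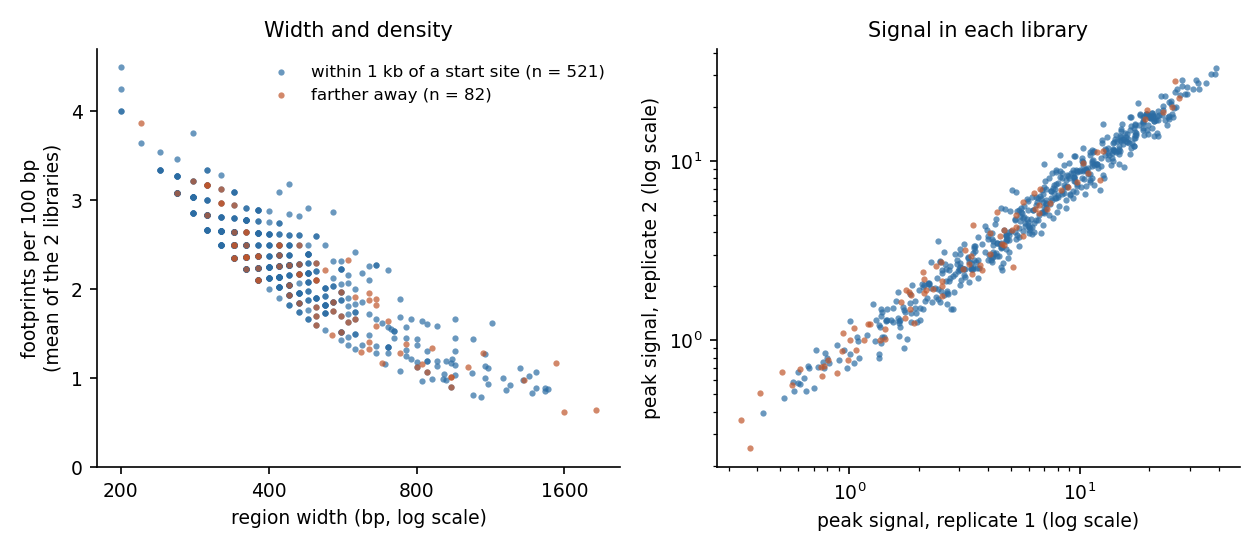
Left, each of the 603 members by its width (bp, log scale) and footprints per 100 bp (mean of the 2 libraries); right, the deposited peak signal of each member in replicate 1 and in replicate 2 (log scales). Blue points are the 521 members within 1 kb of a protein-coding start site and orange points the other 82; density falls from 4.5 at 200 bp to under 1 in the widest, and low and high signals repeat between the libraries.

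Classes of width differed in more than density. The 44 members under 300 bp had median densities of 3.15 and 3.08, median signals of 8.98 and 7.96 in the deposited units of each library, and a promoter share of 93.2%. For the 441 members from 300 bp to under 600 bp the densities were 2.35 in both, the signals 7.56 and 6.58 and the promoter share 88.2%. The 118 members of 600 bp or more had densities of 1.25 and 1.34, signals of 1.74 and 1.33 and a promoter share of 77.1%. Median signal and density were thus highest in the narrow class and lowest in the wide one. The minimum of 8 footprints sets a higher lowest density for narrow regions, so the order of density follows largely from the rule.

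Srsf6 had the highest density, with 9 footprints in each library overlapping its 200 bp, or 4.5 per 100 bp. Footprints that cross the edge of a region are counted too, which can raise density most in narrow regions. The promoter shared by Jmjd4 and Snap47 had 9 and 8 in 200 bp. Those of Mrpl1, a mitochondrial ribosomal protein, and Cd81, a tetraspanin of the B cell coreceptor, each had 8 in both libraries over 200 bp. Onecut3 had 9 and 8 footprints in 220 bp, 19295 bp from the nearest protein-coding start site and outside protein-coding genes. All 5 densest members had signals above the median of all shared regions, with Jmjd4 the lowest of them in replicate 1 at 6.20 and Srsf6 the lowest in replicate 2 at 5.46.

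By number the order was different. Sfmbt1, which encodes a chromatin protein with MBT repeats, had the most, 18 and 19 footprints across 1140 bp at chr14:30715501-30716640. Map3k1, a kinase at the head of a MAP kinase cascade, had 16 in both libraries across 960 bp. Nadk, which makes NADP from NAD, had 15 and 16 across 540 bp and signals of 9.45 and 10.6. These are CpG-rich promoters, in which density ranged from 1.58 per 100 bp at Sfmbt1 to 2.96 at Nadk. Slc25a42, a mitochondrial carrier of coenzyme A, had 15 in each library. Fbxl17, an F-box protein, had 14 in each across 480 bp, and every one of them overlapped a footprint of the other library. At Lin52, a subunit of the DREAM complex, the region also covered the promoter of Aldh6a1 on the other strand and held 14 and 15 footprints. Hist3h2a, a histone H2A gene next to Trim17, had 14 and 17.

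Signal, the deposited value of the highest peak in a region, also differed from that of other regions of like width. Median signal was 6.04 in replicate 1 and 5.16 in replicate 2, against 0.973 and 0.867 in other shared regions of like width. The footprint rule did not read the signal, but a footprint needs enough cuts around it to be found, so the 2 are linked by method. Only 43 and 44 members lay under the median signal of all shared regions, which was 1.08 and 0.989, and 600 members had a peak of the stricter list in both libraries. The strongest was Larp1b, a La-related RNA-binding protein, at 38.9 and 32.8, followed by Dnpep, an aspartyl aminopeptidase, at 38.6 and 30.6. Gpr155 at 36.9 and 30.6, Marf1 at 35.2 and 27.1 and Nfya, a subunit of the CCAAT-binding factor NF-Y, at 31.9 and 28.4 came next. Each of these 5 had 8 or 9 footprints in each library, so the strongest members were not those with the most footprints.

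Weak members were found in both classes of CpG content. Under the median signal of all shared regions in both libraries lay 26 of the 554 CpG-rich members. A larger share of the CpG-poor ones, with a ratio of observed over expected CpG under 0.5, lay there: 13 of 49. The weakest were 2 neighbouring regions over exons of Atp13a1, a P5-type ATPase. The region at chr8:69799301-69799560 had signals of 0.339 and 0.360 and 8 footprints in each library, of which 62.5% in replicate 1 and 75% in replicate 2 overlapped one of the other library. Its neighbour at chr8:69799781-69801380 had signals of 0.371 and 0.249 and 9 and 11 footprints, and none of these overlapped between the libraries. Both passed the rule on number, but at the second region the positions did not repeat. A region 441858 bp from the nearest start site, that of Adam29, had signals of 0.409 and 0.507 and the most unequal count, 9 against 19. Il15, a cytokine needed by natural killer cells, had 13 and 9 footprints with signals of 0.521 and 0.474, and 15.4% and 22.2% of them overlapped between the libraries. The widest member, 1856 bp inside Cic, had 11 and 13 footprints at signals of 0.565 and 0.564.

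Positions of footprints were read for all members as well. In the median member 80% of the footprints of each library overlapped one of the other library, against 42.9% and 33.3% in regions of like width. Footprints covered 33.5% and 33.6% of the bases of the median member, against 5.80% and 7.44%. Where more bases are covered, footprints of the libraries meet more often by coverage alone. The overlap due to coverage was not computed, so the gap at like width does not show that positions repeat better in members. Neighbouring footprint centres were 42 bp apart in both libraries. In regions of like width and also like signal, for which 547 members had partners among 8630 other regions, the spacing was 51.2 and 55.5 bp against 41.0 and 40.8 bp in the members, and coverage was 25.2% and 24.8% against 34.1% and 34.2%. Closer spacing and more covered bases follow from the larger number at equal width. Overlap between libraries was close there, 80% in both for members against 75% and 80%. Once signal was alike, median footprint width was 13 bp in both groups and both libraries.

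Since the rule needs both libraries, each was also used to choose regions that were then read in the other. Of 1271 shared regions with 8 or more footprints in replicate 1, 47.4% had 8 or more in replicate 2, where regions of like width with fewer in replicate 1 reached it in 7.41%. Chosen in replicate 2, 1404 regions had 8 or more, and 42.9% of them reached 8 in replicate 1, against 5.65%. At least 6 in the other library were held by 80.1% and 71.4% of the chosen regions, a share not taken at like width. The median number in the other library was 7 in both sets of chosen regions and 3 in regions of like width. These shares come from libraries described as coming from separate males. The values at like width were not taken at the same signal.

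Promoters made up most members. Within 1 kb of a protein-coding start site lay 521 of 603, or 86.4%. An exact 95% interval of 83.4 to 89.0% treats regions as independent draws. Regions are not replicates, so it does not measure the spread between animals. The share was 61.2% in other shared regions of like width, where the 598 members with partners had 86.6%. At like width and like signal the shares were close: 86.1% of the members against 85.7% of the other regions. Across all shared regions the promoter share was 43.3% at 0 footprints, 20% at 1 and 31.6% at 3. It then rose to 70.5% at 5 and 84.4% at 7, and among members it stayed between 83.5% and 87.8% at 8 to 11 footprints.

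**Figure D2:**
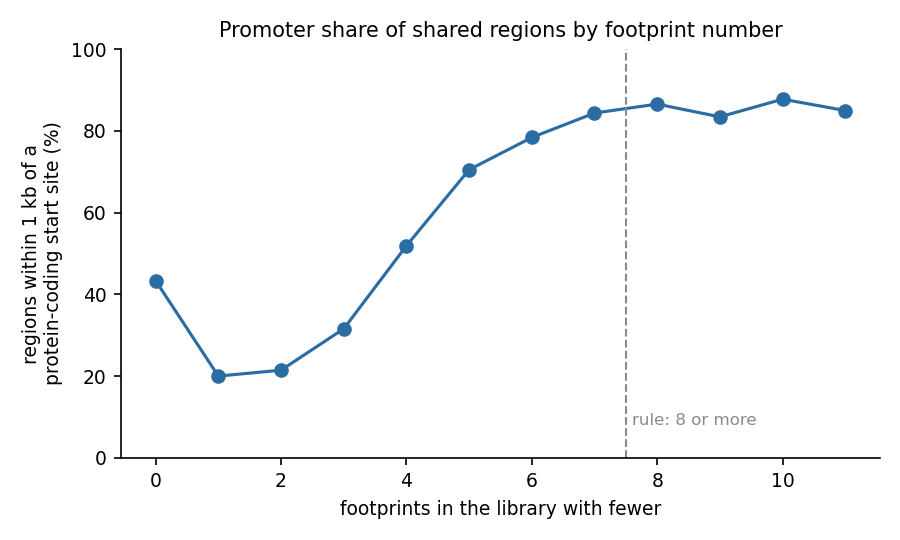
Percent of shared regions within 1 kb of a protein-coding start site (vertical axis) by the number of footprints in the library with fewer (horizontal axis), for numbers held by at least 20 regions. The share is lowest at 1 footprint, 20%, and is already 84.4% at 7, just outside the rule marked by the dashed line.

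A start site lay inside 408 members (67.7%), and 69 members reached the start sites of 2 or more genes. At 64 members (10.6%) promoters on both strands were within reach, against 4.28% at like width. At like width and signal the same shares were 11.3% and 9.64%. Around the start sites inside members, footprint centres were most frequent in the 100 bp upstream, at 2.42 and 2.36 per 100 bp of open region. They numbered 2.25 and 2.24 from 200 to 101 bp upstream, 2.25 and 2.23 in the first 100 bp downstream and 1.99 and 2.08 in the next. In 4463 regions of like width and signal that also held a start site the values were 1.86 and 1.75 in the 100 bp upstream. From 200 to 101 bp upstream they were 1.84 and 1.65. They were 1.74 and 1.72 in the first 100 bp downstream and 1.40 and 1.35 in the next. These regions were weighted to the 353 members with partners, while the member values cover all 408. The rule on number fixes that members have more, and these values show only where along the region they lay. Members extended a median of 250.5 bp upstream of the start site and 133 bp downstream.

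**Figure D3:**
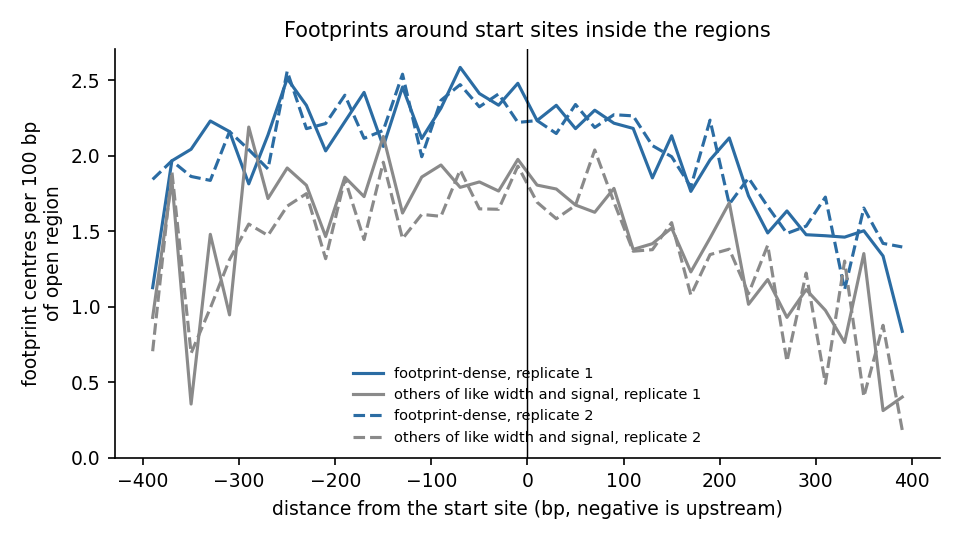
Footprint centres per 100 bp of open region (vertical axis) by distance from the start site (bp, 20 bp bins) for the 408 members that hold one (blue) and for 4463 other regions of like width and signal (grey), replicate 1 solid and replicate 2 dashed. Members lie above the other regions on both sides of the site in most bins. Both fall off downstream, and both are also lower in the farthest upstream bin than at the site. The grey lines are weighted to the 353 members with partners.

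The members' promoters belonged to 586 genes, which are 4.50% of the 13028 protein-coding genes with a shared region within 1 kb of a start site. That percentage is the background against which each gene list is read, and the lists give counts without a test. It is not matched for width or signal, and the part of these in the share of a list was not tested. Among genes active at once after a stimulus, 4 of 31 with an open promoter had a member: Junb and Jund, parts of the AP-1 factor, Klf10 and Myc. Jund had 8 and 9 footprints at signals of 29.2 and 23.6, and Myc had 11 and 9 at 2.44 and 1.94. Chromatin and Polycomb genes had 5 of 42, namely Arid1a of the SWI/SNF complex, the insulator protein Ctcf, the DNA methyltransferase Dnmt3a, Rbbp7 and the methylcytosine oxidase Tet3. The Dnmt3a region lay 541 bp from the start site at signals of 0.903 and 0.777, and 33.3% and 27.3% of its footprints overlapped between the libraries. Factors of the ETS, RUNX, IKZF and KLF families also had 5 of 42: Etv6, Klf3, Klf9, Klf10 and Klf13. Splicing genes had 4 of 45, with Hnrnpd, Nono, Srsf6 and U2af2. In each of these lists the median open promoter had 5 footprints, against 4 over all genes.

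Replication-dependent histone genes, which are transcribed in the S phase, had 10 of 60, the highest share of the lists. Several share a promoter, as Hist1h2ah and Hist1h2bk do, so these genes are not 10 separate regions. Hist1h3h had 10 and 12 footprints in a CpG-poor region 753 bp from its start site, with signals of 0.651 and 0.523. Of these footprints 40% and 33.3% overlapped between the libraries. Cell cycle genes had 2 of 42, Mcm3 of the replicative helicase and the proliferation marker Mki67. Zfp zinc finger genes had 11 of 330 and mitochondrial ribosomal proteins 4 of 77. No member lay at the 82 open promoters of cytosolic ribosomal proteins, the 46 of proteasome subunits or the 20 of a housekeeping list, all genes that nearly every cell transcribes. At these 3 lists the median open promoter had 4 footprints, the same as over all genes.

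Marker genes of spleen cell types were read against the same background of 4.50%, and since the lists are short, nothing is read from a count of 0 or 1. Erythroid genes had 1 of 45 (2.22%), Zfpm1, the cofactor of GATA1, whose region had 8 footprints in each library, every one overlapping between them, and signals of 29.0 and 26.0. B cell genes had 1 of 22 (4.55%), Foxo1, with 9 and 8 footprints at 3.96 and 4.12. Stem and progenitor genes had 2 of 18 (11.1%), Hhex and Etv6. No member lay at open promoters of the T cell (11), macrophage (8), neutrophil (13), megakaryocyte (9), endothelial (9) or stroma (10) lists, nor at the 24 of interferon and antigen presentation genes. Median numbers at open promoters were 4 for erythroid genes, 3 for B and T cell genes and 2 for neutrophil genes. Blood signalling genes had 2 of 36, Rel, an NF-kappaB subunit, with 12 and 14 footprints, and Pik3cd, the delta catalytic subunit of PI3-kinase, with 10 and 12.

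Some genes had more than 1 member within 1 kb of their start sites. Among these were Arid1a, Gse1, Klf13, Pim3, Rev3l and Zfp644, each with 2, and no gene had 3. Arid1a, besides its promoter region with 12 and 13 footprints across 1400 bp, was also the nearest gene to a member at 57272 bp, at chr4:133814041-133814460, with 11 and 10.

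Away from promoters there were 82 members: 27 between 1 and 5 kb from a start site, and beyond that 35 outside protein-coding genes, 15 intronic and 5 over exons. Their median signal was 3.15 and 2.54, and their median CpG ratio, observed over expected from the base composition, was 0.535. Ppp2r3d had the most footprints of them, 17 and 19 in an intronic region of 1540 bp with signals near 1. Zbtb20, a zinc finger repressor, had 14 and 13 in an intronic region at chr16:42875321-42875900 with signals of 12.5 and 11.4. The member in Phf19, an accessory subunit of Polycomb complex 2, had 11 and 10 at signals of 19.1 and 17.2. A region 7748 bp from Cdkn1b, which encodes the cell cycle inhibitor p27, had 14 and 11, and one 22186 bp from Ptma had 11 and 12. Over all 603 members, 83 (13.8%) overlapped a long non-coding gene, against 12.9% at like width.

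The members were rich in G, C and CpG. Median GC content was 68.3% against 61.8% at like width, and the median CpG ratio was 0.858 against 0.629. Among promoters alone, the CpG ratio was 0.874 against 0.767. At like width and signal it was 0.858 against 0.833, a gap of smaller size. Bases covered by footprints of both libraries, 19.5% of all member bases, were 74.0% G or C, and the other bases of the members were 65.7%. The same was seen in the other shared regions, at 65.7% and 57.1%.

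CpG-poor members, with a ratio under 0.5, numbered 49, or 8.13%. The share was 40.2% at like width and 10.3% at like width and signal, where the members with partners had 8.23%. Of the 49, 38 lay away from promoters. They had a median width of 540 bp, densities of 1.67 and 1.74 and signals of 1.82 and 1.63, where the 554 CpG-rich members had 420 bp, 2.29 and 2.25, and 6.70 and 5.54. A few are named here after their values were seen, with no count of a kind of gene behind them. Slc4a1, the band 3 anion exchanger of the red cell membrane, lay 16640 bp from a member with 9 and 8 footprints. Of these 22.2% and 25% overlapped between the libraries. Slc25a38, a mitochondrial glycine carrier of heme synthesis, lay 4327 bp from a member with 9 and 12. Its signals of 1.06 and 0.883 were under the medians of all shared regions. Neither of these 2 regions held a GATA site (AGATAA). Within 4779 bp of Rbm38, an RNA-binding protein, a member had 10 and 11. The beta-actin gene Actb lay 13967 bp from a member with 9 in each library. Among the 11 CpG-poor members at promoters were those of Cd37, a tetraspanin of lymphocytes, and Pkd1, the polycystin gene.

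Motif letters in the members were counted on both strands, for 23 sequences known from promoters or from blood cell enhancers. A GC box (GGGCGG) was present in 86.2% of members and in 55.7% of regions of like width, and a CCAAT box (CCAAT) in 44.8% and 31.5%. The NRF1 site (GCGCATGCG) was in 4.31% against 0.690%, the CRE (TGACGTCA) in 3.65% against 0.896%, the YY1 site (AANATGGCG) in 8.79% against 2.36% and the ETS site (CCGGAAG) in 16.3% against 9.59%. Less frequent in members were the GATA site (AGATAA), at 6.30% against 12.1%, and the RUNX site (TGTGGT), at 13.8% against 21.2%. At like width and signal these gaps were small: the GC box was in 85.6% of members with partners against 81.0%, the NRF1 site in 4.02% against 2.60% and the GATA site in 5.85% against 7.48%. The other way round were then the ETS site, in 16.6% against 21.2%, and the RUNX site, in 12.98% against 12.50%.

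Motifs differed more in whether footprints lay on them. Of 43 NRF1 matches in members, 39 (90.7%) had their centre in a footprint of both libraries. The BANP element CTCGCGAGA had 12 of 15 (80%) and the CRE 20 of 27 (74.1%). GC boxes had 919 of 1968 (46.7%), TATA boxes (TATAAA) 12 of 28 (42.9%), ETS sites 28.6% of 126 and CCAAT boxes 26.2% of 573. All of these are above the 19.5% of bases that such footprints covered. Below it were GATA sites with 2 of 42 (4.76%), RUNX sites with 8 of 103 (7.77%), AP-1 sites (TGANTCA) with 2 of 42 (4.76%), PU.1 sites (GAGGAAGT) with 1 of 24 (4.17%) and the E-box CAGCTG with 18 of 179 (10.1%). The 3 motifs with the highest shares hold a CpG and those named as below 19.5% do not. Several motifs without one lay above it, among them the TATA box, the CCAAT box and the CACCC box (CCACACCC), the last at 27.1%. Footprint bases were richer in G and C, as given above, and the part of base composition and of enzyme preference in these shares was not tested. AP-1 letters are also part of the NF-E2 site searched (GCTGANTCA), and GC boxes can overlap E2F sites.

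Other regions of like width and signal were read too, but their matches and bases were pooled without weights and set beside all 603 members. Over these 8630 regions 18.7% of bases lay in footprints of both libraries. With weights, the median share of such bases was 17% in the other regions and 24.3% in members, so the pooled shares are only roughly alike in setting. There 94.9% of 505 NRF1 matches, 71.3% of 254 CREs, 66.1% of 236 CTCGCGAGA elements and 47.4% of 14366 GC boxes were in footprints. The GATA site was at 14.2% of 584 and the RUNX site at 9.91% of 1029. YY1 sites were at 28.3% in members and 40.8% there, the widest gap in favour of the other regions in these unweighted counts. A match is a sequence and does not name the bound protein.

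**Figure D4:**
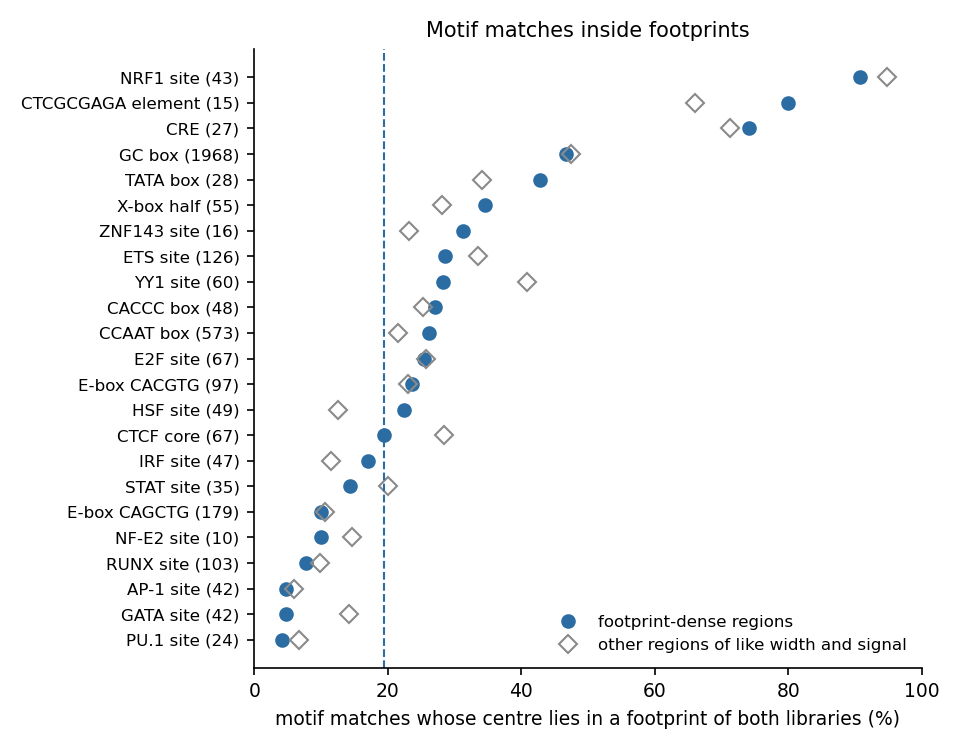
Percent of motif matches (horizontal axis) whose centre lies in a footprint of both libraries, in the members (filled circles, number of matches in brackets) and in other shared regions of like width and signal (open diamonds). Matches of the other regions are pooled without weights. The dashed line is the share of member bases in such footprints, 19.5%; NRF1, CTCGCGAGA, CRE and GC box lie to its right in both groups and GATA, RUNX, AP-1 and PU.1 to its left.

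To show how footprints sit on these letters, the densest member with a fully covered match was taken for the NRF1 site, the CRE and the CTCGCGAGA element, a choice made after the values were seen. For the NRF1 site it is chr8:84639421-84639518, in a region over an exon of the calcium channel gene Cacna1a, 23132 bp from the nearest start site, that of Ier2. The CRE is at the promoter of Jund, chr8:70698681-70698799, and the CTCGCGAGA element, read on the other strand, at that of Cul4a, a scaffold of ubiquitin ligases, chr8:13105460-13105548. Capitals again mark bases in footprints of both libraries, on the + strand of GRCm38.
Ier2: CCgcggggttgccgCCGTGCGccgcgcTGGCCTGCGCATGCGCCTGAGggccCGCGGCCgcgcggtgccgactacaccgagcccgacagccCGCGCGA
Jund: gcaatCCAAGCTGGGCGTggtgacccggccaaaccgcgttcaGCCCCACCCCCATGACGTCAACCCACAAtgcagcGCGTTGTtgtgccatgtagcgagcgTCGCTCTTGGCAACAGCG
Cul4a: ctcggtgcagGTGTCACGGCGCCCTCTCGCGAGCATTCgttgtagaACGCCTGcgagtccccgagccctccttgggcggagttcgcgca

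The Ier2 region had 10 and 9 footprints across 300 bp and signals of 10.8 and 8.58. In the Cul4a stretch the GC box lay outside the covered bases and the CTCGCGAGA element inside. Cul4a itself had 10 and 9 footprints and signals of 19.7 and 14.1.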

How the data were processed

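DNase-seq of 2 spleen libraries was used, both of 1 group. Per the file listing, the authors deposited 2 peak lists per library (80323 and 88723 peaks in the longer, 51123 and 56521 in the stricter), with a signal per peak, and 217159 and 252901 footprints on mm10. The scale of the deposited signal is not stated, and values are given per library, except for summed ranks and for the means of medians in the alternatives. The footprint lists carry 0.01 in every line, so footprints could not be ranked. For the aligner, the peak caller and the footprint caller, the name was not given in the sources used here.

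Overlap means at least 1 bp. The signal of a region is its highest peak. Other regions of like width are other shared regions in the same 20 bp class of width, weighted to the members' widths. Like width and signal uses 50 bp classes and 20 classes of summed signal rank, weighted likewise. The shares of motif matches and of pooled bases in footprints were taken over those regions without weights. Promoters lie within 1 kb of any of 41438 protein-coding start sites of 21938 genes (GENCODE M21 basic, GRCm38); bases come from the RefSeq copy of GRCm38. Region building was tested on simulated data. Python 3.11.15, numpy 2.4.6 and pandas 2.3.3 were used.

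Members, gene lists, motifs and the rule for named genes were chosen with earlier results of these data known. Named are the 10 members with most footprints, the 5 densest, strongest, weakest, widest and narrowest, the 10 with most footprints over 5 kb from a start site, and up to 3 per gene list; a few items are not reported here. No test was run, since the members were selected on the readout.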

Additional observations from a re-analysis of the deposited data

How the results depend on the processing

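No paired analysis was possible because the libraries form 1 group. Requiring 6, 10 or 12 footprints gave 2774, 166 and 36 regions in place of 603. At 6 the promoter share was 81.6%, 30.1 percentage points above regions of like width (25.4 with the rule of 8), median density 2.43 per 100 bp and median signal 6.26, as means of the 2 libraries' medians (2.25 and 5.60 with the rule of 8). At 12 these were 94.4%, 2.09 and 3.27. Counting only footprints that overlap one of the other library left 253 regions, with 90.1%, an excess of 29.5 points, 2.18 and 9.78. Counting only footprints wholly inside the region left 444 regions, with an excess of 21.3 points, 2.08 and 4.29. The stricter peak list gave an excess of 16.8 points, and like width and signal one of 0.392. Promoter windows of 500 and 2500 bp gave shares of 82.8% and 89.4% (excess 30.5 and 21.8 points), and the most upstream start sites 80.6%. Chosen at 6 footprints in 1 library, 51.5% and 48.6% of regions reached 6 in the other.

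Leaving out a library, so that the rule used the other alone, gave 874 to 1139 regions, promoter shares of 73.6 to 80.9%, an excess of 21.3 to 22.9 points, densities of 2.27 to 2.50 and signals of 2.64 to 6.23. The lowest share and signal came without replicate 1. The cause of these shifts was not tested, apart from the smaller or larger sets that the limits themselves make. The excess over regions of like width stayed positive under every alternative run and was near 0 at like width and signal. Unknown depth, an unstated signal scale and 2 libraries limit what small differences can show.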

Other observations

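Members were spread over the chromosomes. Their share of the shared regions ran from 0.609% on chromosome 16 to 1.26% on chromosome 19, and none of the 72 shared regions of the Y chromosome was a member.

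Annotated microRNA genes overlapped 8 members, or 1.33%, against 0.380% of other shared regions at like width and 0.263% at like width and signal. Among them were Mir1893, Mir1901, Mir1932, Mir7672 and Mir7687. With 8 regions the share rests on few cases, and they were looked for after the members were known.

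Footprints of both libraries covered 24.3% of the bases of the median member, 14.5% of the median member away from promoters and 8% of the median CpG-poor member.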
